A study of Homo sapiens with 21 samples.

Results

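The apolipoprotein genes described here are APOA1, APOA2, APOB, APOC1, APOC3, APOE, APOH and APOM, which were chosen by gene symbol and not by their values. Each is listed once in every raw table, and together they make 8 of the 28500 symbols that the tables share. RNA of 21 untreated human cancer cell lines was read once per line on Illumina BeadChip arrays, for a study of how growth depends on the histone demethylase LSD1. The labels give 11 hepatocellular carcinoma (HCC) lines, namely Huh-1, PLC/PRF/5, Hep3B, SNU-886, JHH-4, JHH-6, SNU-475, SNU-739, SK-HEP-1, HLF and SNU-423. They also give 5 lung lines (Calu-1, Calu-3, NCI-H1299, NCI-H596 and Malme-3M) and 5 pancreas lines (AsPC-1, Capan-1, Capan-2, MIA-PaCa-2 and BxPC-3). No line was treated or engineered, each line is 1 culture, and p-values rest on the spread between lines. The LSD1 dependence of each line was not analysed here.

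Apolipoproteins are the protein part of lipoproteins, the particles that carry fat and cholesterol through blood. The liver makes most of them. APOB is the structural protein of very low density and low density lipoproteins, and APOA1 and APOA2 are the main proteins of high density lipoprotein (HDL). The small exchangeable apolipoproteins APOC1 and APOC3 inhibit lipid uptake or lipolysis, and APOE is the ligand by which remnant particles are taken up into cells. APOM carries sphingosine-1-phosphate on HDL. APOH, also called beta-2-glycoprotein I, binds phospholipid surfaces and circulates mostly free of lipoproteins. In the genome APOE and APOC1 are neighbours, as are APOA1 and APOC3.

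Promoter sequences were available from RefSeq (GRCh38.p14) for 5 of the 8 genes. The 4 shown here belong to 2 genes that were read in few HCC lines and in no other line, APOA2 and APOH, and to the neighbours APOE and APOC1, which were read widely. Each runs 5′ to 3′ on the strand of its gene, from 250 bases before the start of the gene to 50 after it. Capitals mark matches to the motifs named in the next paragraph. The windows are chr1:161223579-161223878 (minus strand) for APOA2, chr17:66229366-66229665 (minus strand) for APOH, chr19:44905546-44905845 (plus strand) for APOE, where the first of 3 listed starts was taken, and chr19:44914422-44914721 (plus strand) for APOC1.
APOA2: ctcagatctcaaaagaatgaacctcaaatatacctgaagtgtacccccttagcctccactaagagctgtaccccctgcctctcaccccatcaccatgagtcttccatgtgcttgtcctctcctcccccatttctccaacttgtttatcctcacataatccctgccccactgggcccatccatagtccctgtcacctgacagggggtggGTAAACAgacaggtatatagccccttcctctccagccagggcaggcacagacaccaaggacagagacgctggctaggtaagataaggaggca
APOH: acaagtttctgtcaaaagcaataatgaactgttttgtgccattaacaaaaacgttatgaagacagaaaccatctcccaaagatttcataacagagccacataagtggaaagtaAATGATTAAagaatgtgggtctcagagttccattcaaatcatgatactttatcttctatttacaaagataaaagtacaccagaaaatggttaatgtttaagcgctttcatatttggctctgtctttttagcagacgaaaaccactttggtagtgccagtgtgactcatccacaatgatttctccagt
APOE: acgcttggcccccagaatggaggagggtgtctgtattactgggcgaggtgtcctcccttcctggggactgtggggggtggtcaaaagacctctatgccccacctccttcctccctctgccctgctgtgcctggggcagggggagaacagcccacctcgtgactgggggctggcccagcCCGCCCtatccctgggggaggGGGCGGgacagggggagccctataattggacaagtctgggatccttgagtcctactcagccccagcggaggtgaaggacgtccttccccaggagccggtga
APOC1: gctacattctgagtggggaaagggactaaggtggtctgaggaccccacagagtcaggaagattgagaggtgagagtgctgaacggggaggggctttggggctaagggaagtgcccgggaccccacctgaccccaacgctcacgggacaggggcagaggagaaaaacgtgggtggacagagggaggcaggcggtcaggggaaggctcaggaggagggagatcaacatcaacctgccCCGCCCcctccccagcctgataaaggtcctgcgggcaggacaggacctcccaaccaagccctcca

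Both strands were searched for 6 short motifs, and no motif match overlapped another. The GC box GGGCGG matched at positions -72 and -51 of APOE and at -15 of APOC1, counted from the first base of the match to the start of the gene. It was present in 45.0% of all 35116 promoters of the same length. The FOXA motif TGTTTNC, found in 18.0% of promoters, matched at -42 of APOA2 and at -69 of APOM. The HNF1 motif TTAATNATT, found in 1.31% of promoters, matched at -137 of APOH. The HNF4 motif CAAAGTCCA (0.384% of promoters), the C/EBP motif TTNNGCAA (10.5%) and the TATA motif TATAAA (11.5%) had no match in the 5 windows. A match is a stretch of letters and not a measured binding site.

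Values are log2 normalized intensities, and a gene was counted as detected where the deposited detection p, which sets its signal against the negative controls of the array, was under 0.05. The arrays of the HCC lines are of another design than those of the lung and pancreas lines and were normalized apart. Levels are therefore compared between lines within 1 design and for 1 gene at a time. The raw values of SNU-475 were deposited apart from those of the other HCC lines, with detection p to more decimals. They were normalized together with the other HCC lines. Genes detected made up 24.9% of the list in Hep3B, 32.6% to 35.1% in the other HCC lines and 40.7% to 43.7% in the lung and pancreas lines. The 95th percentile of raw intensity stood 4.77 times over background in Hep3B, 10.1 to 26.3 times over it in the other HCC lines and 32.9 to 43.2 times over it in the lung and pancreas lines. Undetected values of the 8 genes lay between 4.45 and 5.47 in HCC lines and between 4.70 and 5.83 in the others, which is the floor of each scale.

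Some libraries went against their labels in part. Hep3B had 0 of 4 epithelial markers detected, whereas every other HCC line had at least 2, and its KRT8 level was 5.35 against 10.01 to 12.6 in the other HCC lines. EPCAM, listed there as TACSTD1, was at 13.7 in Hep3B but without detection. Of 6 lung epithelium markers Hep3B had NAPSA alone detected, at 13.57, and of 5 melanocyte markers SILV (PMEL) alone, at 11.29. The other HCC lines reached at most 5.67 for NAPSA and 7.49 for SILV. In the lung group, Malme-3M, a line known as a melanoma, had EPCAM, CDH1, KRT8 and KRT18 detected, and of 5 melanocyte markers SILV (PMEL) alone, with MLANA, TYR, DCT and MITF undetected. Its mean melanocyte level, 6.15, was the highest of the lung lines, but Capan-2 of the pancreas group was at 6.19, also with SILV alone detected. MITF was undetected in all 10 lung and pancreas lines although its level there reached 9.11. Its missing detection is therefore no sign of absence. Lung epithelium markers were at 0 of 6 detected in 4 of the 5 lung lines. Calu-3 had EPCAM, KRT8 and KRT18 detected but not CDH1. In the pancreas group, Capan-2 had EPCAM, CDH1 and the duct marker PDX1 detected, but not KRT8, KRT18, KRT19, SOX9, CFTR or TFF1. The comparisons between groups are given with and without these libraries, and the order of HCC lines and the likeness of genes with and without Hep3B. Of 10 hepatocyte markers, 10 were detected in Huh-1 and in PLC/PRF/5, 5 in SNU-886, 4 in SNU-475, 3 each in JHH-4, JHH-6, Hep3B and SNU-423, 2 in SK-HEP-1, 1 in HLF and 0 in SNU-739. From 1 to 2 were detected in each lung line and 0 to 3 in each pancreas line.

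Huh-1 and PLC/PRF/5 carried the full set of the 8 apolipoprotein transcripts described here. All 8 genes were detected in both lines. Hep3B followed with 5, SNU-886 with 4, JHH-4, JHH-6, SNU-475 and SNU-739 with 3 each, SK-HEP-1 and HLF with 2 each, and SNU-423 with APOM alone. The lung and pancreas lines had 1 to 3 of the 8, always drawn from APOC1, APOE and APOM. The map of levels by line shows this as 2 filled columns at the left and an almost empty upper block at the right.

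**Figure D1:**
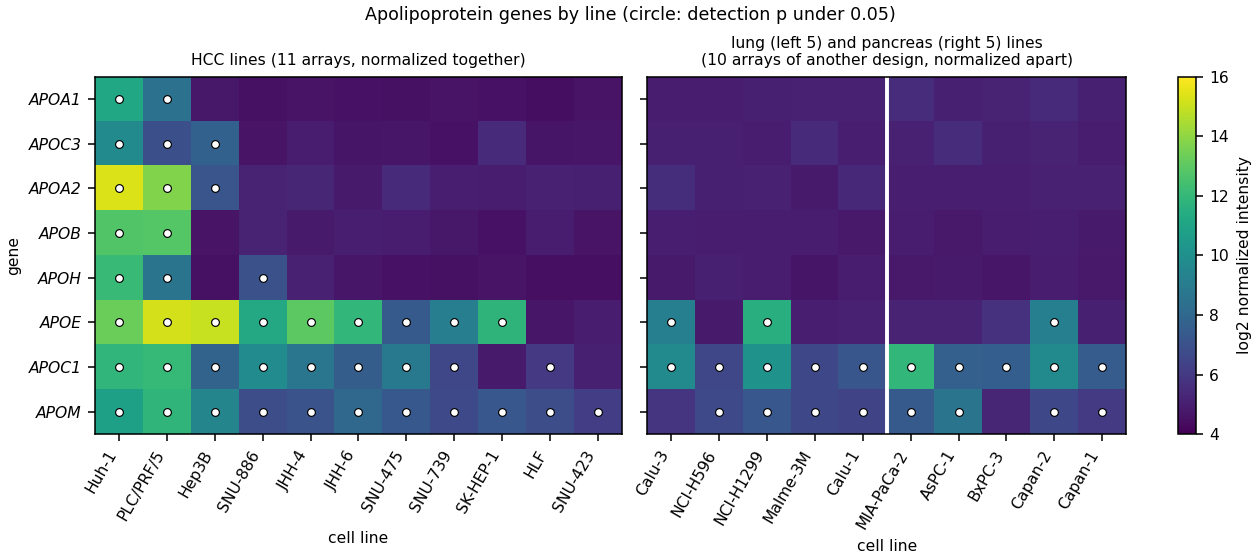
Log2 normalized intensity of the 8 apolipoprotein genes (rows) in the 11 HCC lines (left panel) and in the 5 lung and 5 pancreas lines (right panel, divided by a white line), as colour on 1 scale from 4 to 16, with a circle where the detection p was under 0.05. Huh-1 and PLC/PRF/5 have a circle in all 8 rows, and APOA1, APOC3, APOA2, APOB and APOH have none in the lung and pancreas lines. Colours are to be compared along a row and within a panel.

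Huh-1 was the highest HCC line for 4 of the genes (APOA1, APOA2, APOC3 and APOH) and PLC/PRF/5 for the other 4 (APOB, APOC1, APOE and APOM). The 2 lines were the 2 highest for 6 of the 8 genes, whereas this held for 2.92% of the 17975 genes detected in at least 2 HCC lines. The pair of lines was singled out after the values were seen, so the count carries no test. Hep3B took the second place for APOC3 and APOE. Without Hep3B the count was 8 of 8, against 4.61% of genes. On raw intensity, with Hep3B kept, it was 7 of 8, against 1.25% of genes. A share of the transcript in a line cannot be split here into fewer expressing cells and less RNA per cell. The full set of hepatocyte markers moved with it, being detected in the same 2 lines, and its part in the result was not tested.

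APOA1, the scaffold of HDL, was detected in Huh-1 at 11.17 and in PLC/PRF/5 at 8.51. In the other 9 HCC lines it lay between 4.45 and 4.75, with detection p of 0.60 or more. The 2 lines thus stood apart from all others. In raw intensity APOA1 read 2165 in Huh-1 and 392.01 in PLC/PRF/5.

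APOA2, the second protein of HDL, reached 15.38 in Huh-1, 13.73 in PLC/PRF/5 and 7.17 in Hep3B, where the detection p was 0.02. It lay between 4.87 and 5.47 in the other 8 HCC lines and missed the threshold in SNU-475 at a detection p of 0.055. Its range over the HCC lines was 10.5 log2 units, whereas APOC3 had a range of 5.09. Huh-1 and PLC/PRF/5 were far above the rest, and Hep3B was the only line between them and the floor.

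APOB, the structural protein of very low density lipoprotein, was at 12.82 in PLC/PRF/5 and 12.73 in Huh-1. The other 9 HCC lines lay between 4.60 and 5.16, with SNU-886 the highest of them at a detection p of 0.12. No HCC line lay between these levels, and the 2 detected lines were closer to each other than for APOA1, APOA2, APOC3 or APOH.

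APOC3, an inhibitor of lipoprotein lipase, was at 9.67 in Huh-1, 7.72 in Hep3B and 6.93 in PLC/PRF/5. SK-HEP-1 came next at 5.45 and missed detection at p = 0.06, and the other 7 lines lay between 4.58 and 4.91. The order of Hep3B and PLC/PRF/5 rests on the scaling: raw intensity was 212.61 in Hep3B and 224.57 in PLC/PRF/5, and with median scaling PLC/PRF/5 was the second highest. APOC3 and its neighbour APOA1 were both detected in 2 HCC lines, APOC3 alone in Hep3B, and neither in the other 8 HCC lines or in any of the 10 lung and pancreas lines.

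APOH, a plasma phospholipid-binding protein, was at 12.15 in Huh-1, 8.62 in PLC/PRF/5 and 6.97 in SNU-886, where the detection p was 0.01. JHH-4 followed at 5.12 (detection p 0.12), and the other 7 lines lay between 4.50 and 4.71. SNU-886, where APOA1, APOA2, APOB and APOC3 were not detected, also had 5 of the 10 hepatocyte markers detected, albumin among them. Hep3B, detected for APOA2 and APOC3, was at the floor for APOH at 4.53.

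In the lung and pancreas lines these 5 genes were at the floor throughout. None of their 50 values passed detection, the levels ran from 4.70 to 5.56, and the lowest detection p was 0.18. Each of the 5 was therefore without a detected level in 10 of 10 lines there, against 2 or 3 detected lines of 11 in HCC.

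APOE, the ligand for remnant uptake, was detected in 9 of 11 HCC lines. It was at 15.24 in PLC/PRF/5, 15.0 in Hep3B, 13.3 in Huh-1, 13.0 in JHH-4, 11.94 in JHH-6, 11.81 in SK-HEP-1, 11.26 in SNU-886, 9.14 in SNU-739 and 7.40 in SNU-475. HLF, at 4.72, and SNU-423, at 4.94, were at the floor. APOE thus passed detection in 7 HCC lines without the full hepatocyte set, SNU-739 with 0 of 10 hepatocyte markers among them. In the other lines it was detected in Calu-3 at 9.19 and NCI-H1299 at 11.51 of the lung group and in Capan-2 at 9.17 of the pancreas group, and the remaining 7 lines lay between 4.89 and 5.73.

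APOC1, the small apolipoprotein whose gene lies next to APOE, was detected in 9 of 11 HCC lines and in all 10 others. It was at 12.03 in PLC/PRF/5, 11.92 in Huh-1, 9.81 in SNU-886, 8.87 in SNU-475, 8.73 in JHH-4, 7.84 in Hep3B, 7.54 in JHH-6, 6.53 in SNU-739 and 5.99 in HLF. SK-HEP-1 at 4.88 and SNU-423 at 5.03 were not detected. In the lung lines it was at 10.14 in NCI-H1299, 9.69 in Calu-3, 7.22 in Calu-1, 6.59 in Malme-3M and 6.57 in NCI-H596. In the pancreas lines it was at 11.95 in MIA-PaCa-2, 9.67 in Capan-2, 7.66 in AsPC-1, 7.57 in BxPC-3 and 7.49 in Capan-1.

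The neighbours APOE and APOC1 were often, but not always, read together. Both were detected in 8 HCC lines, APOE without APOC1 in SK-HEP-1, APOC1 without APOE in HLF, and neither in SNU-423. In the lung and pancreas lines both were detected in Calu-3, NCI-H1299 and Capan-2, and APOC1 without APOE in the other 7. The only line of the 10 with more APOC1 than these 3 was MIA-PaCa-2, which had APOE at 5.16 with a detection p of 0.48. Without Calu-3 and Capan-2, whose markers went against their labels, NCI-H1299 was the only lung or pancreas line with APOE.

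**Figure D2:**
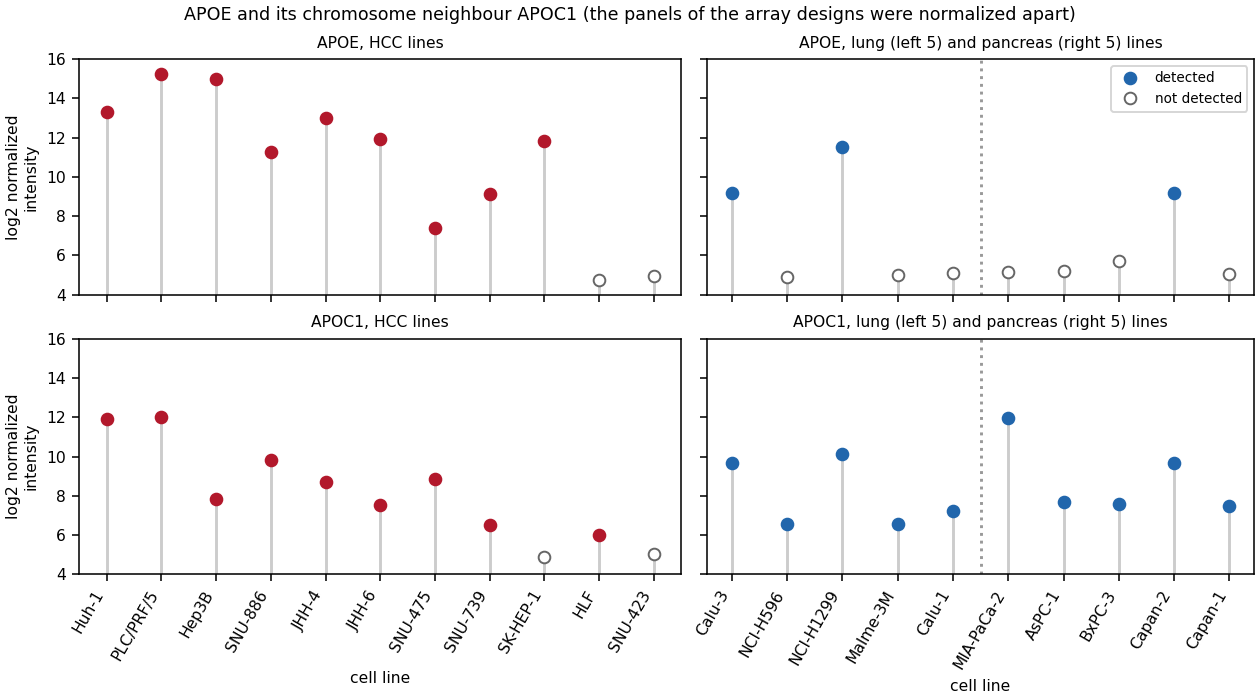
Log2 normalized intensity of APOE (top) and APOC1 (bottom) in each HCC line (left, red) and each lung and pancreas line (right, blue), 1 point per line; open points were not detected. SK-HEP-1 has APOE at 11.81 and APOC1 at the floor, and MIA-PaCa-2 has APOC1 at 11.95 and APOE at the floor.

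APOM, the HDL carrier of sphingosine-1-phosphate, was detected in all 11 HCC lines and was the most even of the genes detected in 9 or more of them. It was at 11.84 in PLC/PRF/5, 10.8 in Huh-1, 9.46 in Hep3B and 7.99 in JHH-6, and the other 7 HCC lines lay between 6.18 and 7.30. The range was 5.67 log2 units over the HCC lines and 3.31 over the lung and pancreas lines. There APOM was detected in 8 of 10, from 6.05 in Capan-1 to 8.59 in AsPC-1, and not in Calu-3 (5.83, detection p 0.10) or BxPC-3 (5.29, detection p 0.33).

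The comparison of lung with pancreas lines asks whether tissue of origin within 1 array design separates these genes. No apolipoprotein gene differed. Only APOC1, APOE and APOM were tested, since a gene had to be detected in at least 3 of the 10 lines, and limma called 1 of 17119 genes (0.00584%), which was none of the 3. APOC1 averaged 8.04 ± 1.74 in lung lines and 8.87 ± 1.95 in pancreas lines (SD, n = 5 each), a lung minus pancreas difference of -0.83 log2 units (SE 1.05, limma adjusted p = 0.99997). APOE averaged 7.13 ± 3.05 in lung lines and 6.06 ± 1.76 in pancreas lines (SD, n = 5 each), a difference of 1.08 (SE 1.40, same adjusted p). APOM averaged 6.57 ± 0.52 in lung lines and 6.79 ± 1.27 in pancreas lines (SD, n = 5 each), a difference of -0.22 (SE 0.56, same adjusted p). The groups overlapped for each of the 3 genes. Without Malme-3M and Capan-2 the difference was -0.27 for both APOC1 and APOM, and without Calu-3 as well it was -0.69 for APOC1 and -0.03 for APOM. APOE no longer met the detection filter in either case. Single lines moved the differences: APOC1 ran from -1.35 without NCI-H1299 to -0.059 without MIA-PaCa-2, and APOE from 0.83 without Capan-1 to 1.64 without NCI-H596. This range of APOE leaves out Calu-3, NCI-H1299 and Capan-2, the lines in which it was detected. Without any 1 of them APOE failed the detection filter and had no value.

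**Figure D3:**
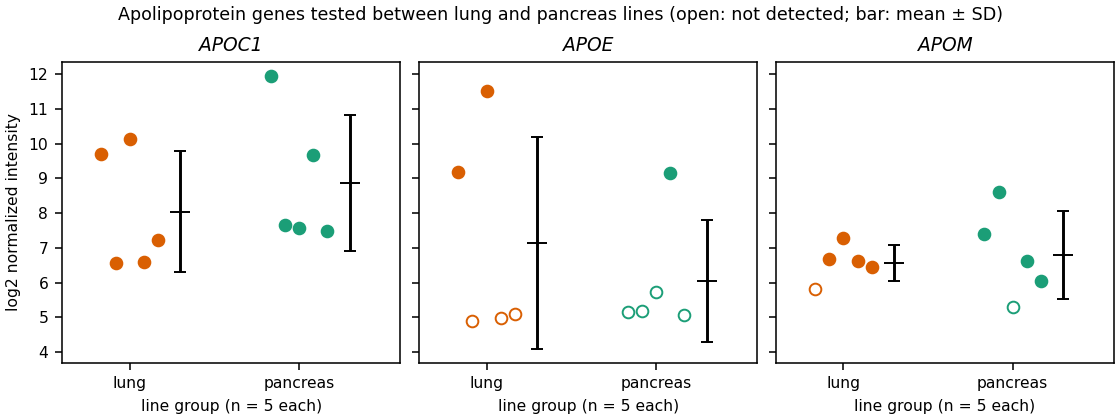
Log2 normalized intensity of APOC1, APOE and APOM in the 5 lung lines (left, orange) and the 5 pancreas lines (right, green), 1 point per line, open where not detected, with the mean ± SD as a black bar. The points of the groups overlap in all 3 panels, and APOE has 2 detected lung lines and 1 detected pancreas line.

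The comparison of HCC lines with the lung and pancreas lines asks which of these genes go with the HCC group, and here tissue and array design cannot be told apart. It was made on detection, which each array sets against its own controls. APOE was detected in 9 of 11 HCC lines and 3 of 10 other lines, with an unadjusted p of 0.030 and an adjusted p of 0.386 over all 28500 shared symbols (Fisher's exact test, two-sided). APOM was detected in 11 of 11 and 8 of 10 lines. APOA2, APOC3 and APOH were each detected in 3 of 11 and 0 of 10 lines, and their exact p was 0.214, as it was for APOM. APOA1 and APOB, in 2 of 11 and 0 of 10 lines, and APOC1, in 9 of 11 and 10 of 10, had an exact p of 0.476. So 7 of the 8 genes were detected in a larger share of the HCC lines and APOC1 in a smaller one. Of the 8, 0 passed, against 186 of 28500 genes (0.653%) called as detected in more HCC lines and 657 in fewer. The 7 genes other than APOE were detected in too few lines, or in too nearly all, for any split to pass. Their outcome was thus fixed by the number of detected lines, and only APOE was open to a call.

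Leaving out lines did not turn APOE into a call. Without Capan-2, Calu-3 and Malme-3M it was detected in 9 of 11 HCC lines and 1 of 7 others, with an adjusted p of 0.241 by the same exact test. With single lines left out its adjusted p ran from 0.323 to 0.821. When all 21 arrays were normalized together and tested with limma, APOE was 4.69 log2 units higher in HCC lines (adjusted p = 0.015) and APOM 2.15 higher (adjusted p = 0.0186), and 6.61% of 17916 genes were called higher in HCC. That is 2 of the 6 apolipoprotein genes that met the detection filter. The other 4 were APOA2 at 2.36, APOH at 1.43, APOC3 at 1.03 and APOC1 at 0.46, with adjusted p from 0.166 to 0.773. APOE and APOM passed without each of the 21 lines in turn, with adjusted p of at most 0.030 and 0.0384. Against the lung lines alone neither passed (0.112 and 0.0646), and against the pancreas lines alone APOE did (0.0378) and APOM did not (0.0893). Without Capan-2, Calu-3 and Malme-3M APOE passed (0.0319) and APOM did not (0.0825).

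Other apolipoproteins were described from a list of 16 genes, of which 6 were detected in no HCC line, Huh-1 and PLC/PRF/5 included. By detection 1 of the 16 was called in more HCC lines and 0 in fewer, and 0 of the 4 tested differed between lung and pancreas lines. The call was APOL2, an intracellular relative of the trypanolytic factor APOL1, detected in 8 of 11 HCC lines and 0 of 10 others (Fisher's exact test, adjusted p = 0.0349). Its HCC levels were low, from 4.77 to 7.52, and its undetected levels in the other lines reached 7.58. SAA4, the constitutive serum amyloid A of HDL, was at 11.17 in Huh-1, 10.66 in PLC/PRF/5 and 6.26 in SNU-886, the 3 HCC lines in which APOH was detected too, and was not detected in the other 8. Unlike APOH it was also detected in NCI-H596, BxPC-3 and Capan-1, with levels of up to 9.81 in the lung and pancreas lines. The mitochondrial proteins APOO and APOOL, members of the inner membrane organizing complex, were detected in all 21 lines. APOO ranged from 8.26 to 10.58 and APOOL from 6.73 to 9.41 over the HCC lines, so that neither followed the plasma apolipoproteins. APOL6 was detected in 5 HCC lines, at 6.92 at most, in JHH-6.

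Of 9 genes of lipoprotein assembly and secretion, 0 were called by detection in either direction, and 0 of 5 tested differed between lung and pancreas lines. MTTP, the transfer protein that loads lipid onto APOB, was at 10.48 in Huh-1, 6.43 in SNU-886 and 5.69 in SNU-739. In PLC/PRF/5, where APOB was at 12.82, MTTP was at 5.08 and not detected (p = 0.16). P4HB, the partner subunit of MTTP and a general disulfide isomerase, was detected in all 21 lines, at 12.65 to 14.34 in HCC lines other than Hep3B and 7.42 there. SURF4, a cargo receptor for secreted lipoproteins, was likewise at 10.38 to 12.12 in the other HCC lines and at 6.64 in Hep3B. TM6SF2, which acts in the lipidation of secreted particles, was highest in Hep3B at 10.52, followed by PLC/PRF/5 at 5.93.

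Among 10 genes of lipoprotein uptake, 0 were called by detection and 0 of 7 tested differed between lung and pancreas lines. SCARB1, the HDL receptor, was highest in PLC/PRF/5 at 11.51 and Huh-1 at 10.97 and lowest in Hep3B at 7.78. LRP8, a receptor for APOE, was also highest in PLC/PRF/5 at 10.36 and Huh-1 at 9.68, and in Hep3B it was at 5.03 and not detected.

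Of 11 genes of HDL formation and remodelling, 0 were called in more HCC lines and 1 in fewer, and 0 of 5 tested differed between lung and pancreas lines. The call was ABCG1, a cholesterol exporter to HDL, detected in 3 of 11 HCC lines and 10 of 10 others (Fisher's exact test, adjusted p = 0.0349). LIPC, hepatic lipase, was at 10.8 in Huh-1, 9.30 in PLC/PRF/5 and 6.90 in SNU-886 and was not detected in the other 8 HCC lines, and it was detected in MIA-PaCa-2 and Capan-1 of the other lines. PON3, a lactonase carried on HDL, was at 12.93 in PLC/PRF/5, 11.56 in JHH-4 and 10.65 in Huh-1. LIPG, endothelial lipase, was highest in JHH-4 at 10.12 and SNU-739 at 10.01 and was at 5.70 in Huh-1 and 4.95 in PLC/PRF/5. In the lines with the fewest apolipoprotein genes detected it went both ways. It was at 9.23 in SNU-423 but undetected in SK-HEP-1 (4.96) and HLF (4.80). LCAT, which esterifies the cholesterol of HDL, was highest in Hep3B at 8.88.

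Among 18 transcription factors known to act on apolipoprotein genes, 0 of 17 tested were called by detection and 0 of 9 tested differed between lung and pancreas lines. CEBPA was at 13.42 in Huh-1, 12.23 in Hep3B, 9.58 in PLC/PRF/5 and 8.59 in SNU-886. It was also detected in JHH-4 at 7.92, JHH-6 at 6.87, SNU-475 at 6.76 and SK-HEP-1 at 5.72, and in 9 of the 10 lung and pancreas lines, at up to 10.77. HNF4A, chosen here after its values were seen, was detected in 4 HCC lines, at 7.11 in Huh-1, 6.17 in Hep3B, 5.59 in PLC/PRF/5 and 5.05 in SNU-886, all low, and in AsPC-1 of the other lines. CREB3L3, likewise chosen afterwards and a factor of APOA4 and APOC2 in mouse liver, was detected in 4 HCC lines and in AsPC-1, and its HCC levels were 10.17 in Huh-1, 9.79 in PLC/PRF/5, 8.73 in SNU-886 and 8.50 in Hep3B. NR1H4, the bile acid receptor FXR, was at 12.18 in Huh-1, 10.8 in JHH-4 and 10.51 in Hep3B. FOXA1 was detected in 10 HCC lines and RXRA in 10, with highest levels of 12.48 and 11.59, both in Huh-1.

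**Figure D4:**
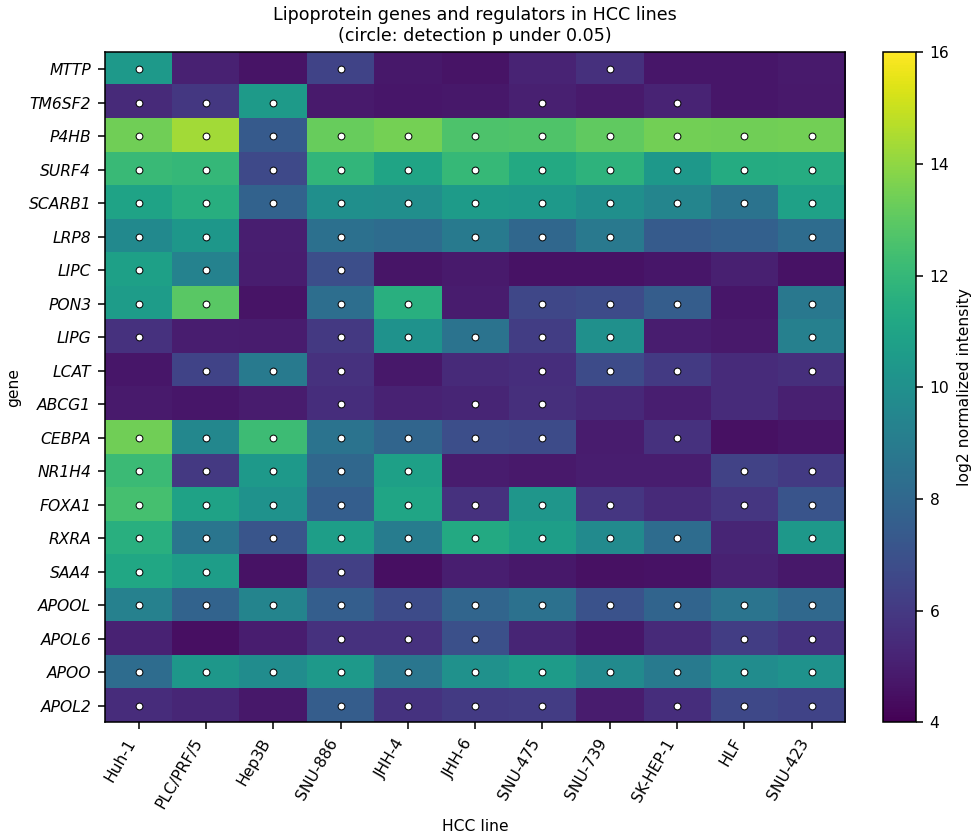
Log2 normalized intensity of named genes of lipoprotein assembly, uptake, HDL remodelling and gene regulation and of other apolipoproteins (rows) in the 11 HCC lines (columns), as colour, with a circle where the detection p was under 0.05. SAA4 and LIPC have circles in Huh-1, PLC/PRF/5 and SNU-886 alone, and P4HB and SURF4 are at 7.42 and 6.64 in Hep3B, below their other HCC lines.

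The genes most like each apolipoprotein gene over the 11 HCC lines were taken from 15581 genes detected in at least 3 of them, as those with the smallest root mean square difference after centring each gene on its mean. The values are a description of 11 lines that share their arrays between genes. APOH was followed most closely by FGL1, a liver-secreted fibrinogen-like protein, at 0.34 log2 units, by the transcript listed as HS.282795 at 0.48 and by LIPC at 0.52. The root mean square spread of APOH itself was 2.35. APOC3 was followed by SLC7A9, an amino acid transporter, at 0.36 and by TTR, the plasma carrier of thyroxine and retinol, at 0.58 and by LIN7A at 0.61, with its own spread at 1.60. APOA2 was followed by GPX2 at 1.08, ASGR2, a subunit of the hepatic asialoglycoprotein receptor, at 1.19 and VTN, plasma vitronectin, at 1.29, with its own spread at 3.62.

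APOM was followed by TTC39C at 0.57, PRODH2, a liver hydroxyproline dehydrogenase, at 0.66 and BCAS1 at 0.72. APOC1 was followed by GCHFR at 1.10, AMBP, a plasma protein made in liver, at 1.17 and AFP, the fetal albumin-like protein, at 1.32. APOE had the least similar companions, with RAP1GAP nearest at 2.17, then SLC4A11 at 2.22 and TMEM145 at 2.23, against its own spread of 3.52. Its neighbour APOC1 ranked 97th of 15581 for likeness to APOE, at 2.82, and APOM ranked 16th, at 2.57. In the other direction APOE ranked 13331st for likeness to APOC1 and 13963rd for likeness to APOM. The 2 differences were larger than the spreads of APOC1 (2.35) and APOM (1.77) themselves. Without Hep3B, among 15196 genes, APOC1 ranked 38th for likeness to APOE, at 2.54, and APOM 35th, at 2.52. In the other direction APOE then ranked 7699th for APOC1 and 14086th for APOM. The nearest gene without Hep3B was MDK for APOE, at 1.88, and C8G for APOM, at 0.43, whereas FGL1 stayed nearest to APOH and GCHFR to APOC1. APOA2 and APOC3 were detected in too few lines without Hep3B, and APOA1 and APOB in too few lines with it, to be ranked.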

How the data were processed

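RNA of 21 cell lines was read on Illumina arrays, 1 array per line. Per the file headers, the deposited raw tables give intensity per gene (average bead signal) and a detection p-value set by the authors' software, BeadStudio per the submitters' processing notes. The sources used here do not give its version, the genome build or how probes were merged. The authors also deposited processed intensity values of unstated normalization, used as an alternative.

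In R 4.3.3, each array's background mean and SD were estimated by regressing the median signal at each detection p from 0.05 to 0.95 on the normal quantile. Normexp correction with an offset of 16, quantile normalization and log2 followed, apart for the 11 HCC arrays and the 10 others. An alternative, the control fit of limma, left a range of 0.0312 log2 units per array, against 11.2 here, and was void. Of the HCC symbols, 2 occurred more than once and were left out. Lung and pancreas lines were compared with limma 3.58.1 over genes detected (p under 0.05) in at least 3 lines, and HCC lines with the others by Fisher's exact test on detection (SciPy 1.17.1), both with Benjamini-Hochberg adjustment. The limma script was tested on simulated data. The number of arrays limits the precision.

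From each gene list the text names every gene past a threshold and up to 4 more with the widest range over HCC lines among those detected in at least 3, and, for each apolipoprotein gene detected in at least 3 HCC lines, its 3 most similar genes. Some results are not reported here. The apolipoprotein genes and lists were chosen with earlier results of these data known. Alternatives changed background, scaling, offset, detection filter, values and lines.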

Additional observations from a re-analysis of the deposited data

Results flagged for a closer look

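APOE in Capan-2 lay far from the other pancreas lines. Its level was 9.17 (detection p under 0.05), whereas AsPC-1, BxPC-3, Capan-1 and MIA-PaCa-2 lay between 5.06 and 5.73 and were not detected. The gap of Capan-2 to its nearest neighbour was 0.838 of the range of the group, above Dixon's 95% critical value of 0.71 for 5 lines. Chance places about 1 in 20 groups of normally spread values past that value. That rate does not hold here, because the undetected pancreas lines lie together at the floor of the scale. The ratio is therefore a description, and 12 ends of groups were looked at over APOC1, APOE and APOM. Capan-2 was also the pancreas line in which KRT8, KRT18, KRT19 and SOX9 were not detected, although EPCAM, CDH1 and PDX1 were, and the part of this in its APOE level was not tested.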

How the results depend on the processing

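The 8 ranges over HCC lines stayed within 1 SD of the lines in 46 of 48 values under other processing. The exceptions were APOC3, at 3.14 without background correction and 3.06 on the deposited processed values, against 5.09. The SD of the lines is a wide measure, from 1.68 for APOC3 to 3.80 for APOA2. All 8 ranges were smaller without background correction and on the deposited processed values. On the latter APOE had 8.28 against 10.5 and APOA1 4.63 against 6.72. The count of apolipoprotein genes led by Huh-1 and PLC/PRF/5 was 6 to 8 under every alternative run. Between lung and pancreas lines, 46 of 47 differences of APOC1, APOE and APOM kept their direction, none passed (lowest adjusted p 0.982), and APOM was 0.23 without AsPC-1, within -0.59 to 0.23 over single lines left out. APOE gave no value where Calu-3, NCI-H1299 or Capan-2, the lines in which it was detected, was left out. The genes called numbered 1, and 2 where detection at p under 0.01 was asked of at least 5 lines, 3 without Capan-2, Calu-3 and Malme-3M, and 1 to 4 with single lines left out (3 without Calu-3, 4 without BxPC-3, 2 without AsPC-1, Capan-2 or NCI-H1299). For HCC lines against the others by detection, 843 genes were called, against 362 with detection p under 0.01, 165 against lung lines alone, 175 against pancreas lines alone, 429 without Capan-2, Calu-3 and Malme-3M, 463 without these and Hep3B, and 650 to 841 with single lines left out. With 21 arrays normalized together limma called 3351 genes and 2 of the apolipoprotein genes, APOE and APOM; detection called 0 under every other alternative run. The control fit of limma was void and gave no value. No paired analysis was possible, because the groups hold different lines, each read once, and the labels pair none of them. Detection is limited in Hep3B, where the 95th percentile was 4.77 times background. The tables also hold bright values without detection: 39 genes above 11 in Huh-1, so a gene counted as undetected can still be bright; none of the 8 apolipoprotein genes had such a value.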
